A study of Mus musculus with 6 samples.

Results

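The group examined was 10 acute-phase genes, the serum amyloid A genes Saa1, Saa2, Saa3 and Saa4, with Lcn2, Pglyrp1, Hp, Lrg1, Orm1 and Apcs. They are 10 of the 23951 gene symbols of an RNA sequencing table of whole mouse skin, found in it by symbol, and all 10 had a row. The table covers 3 JunBΔep mice and 3 controls, C57Bl/6 in strain and 6 to 7 months old by the labels, with no treatment named in the labels. JunBΔep mice carry a floxed Junb allele and a K5-Cre transgene, which deletes Junb in cells that use the keratin 5 promoter, so other cells of the skin keep the gene. Controls are labelled JunB +/+. The skin of the mutants was lesional by the study's account, and mice are named here by the replicate numbers 0, 1 and 2 of the labels. Values are FPKM, sequenced fragments scaled for transcript length and library size, which allows levels of different genes to be compared.

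Acute-phase proteins are plasma and tissue proteins whose amounts change within hours of infection or injury. Hepatocytes make most of them in response to interleukin-6, interleukin-1 and related cytokines, through STAT3, C/EBP and NF-κB factors. Several of the genes are also used outside the liver. Saa3 is the serum amyloid A gene of macrophages, adipocytes and epithelia in the mouse, Lcn2 and Pglyrp1 are stored in neutrophil granules, Lcn2 is induced in stressed keratinocytes, and Hp and Orm1 are active in fat. The name of the group therefore covers genes of different cellular origin, and the values are given below gene by gene, beside marker genes of liver, neutrophils, blood and fat. In whole tissue, fewer cells of a type and less RNA per cell cannot be told apart.

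The members were selected on their FPKM levels in these 6 libraries, already known, so their levels are a description, no test is given for them, and nothing is read from the counts of calls given below. Junb itself was at 59.3, 72.4 and 56.9 FPKM in the controls, and the libraries labelled JunBΔep replicates 0, 1 and 2 held 129.6, 42.8 and 28.0 FPKM. Its level in the library labelled JunBΔep replicate 0 was above every control. Other cells of the skin keep Junb, so this level does not show whether the label is right, and the library is called labelled throughout. The FPKM values of a mouse summed to between 481078 and 630363, and the number of reads is unknown. All 12 keratinocyte markers were present in skin of every mouse, except that Krt14 is listed at 0 in the library labelled JunBΔep replicate 0, where Krt5 was at 3725 FPKM. Because a value of 0 may reflect an estimate that failed, such a gene is described as listed at 0. The library labelled JunBΔep replicate 0 stood apart in other ways as well, with adipocyte genes far below and Krt13, a keratin of mucosal epithelium, far above all others (1990 FPKM against at most 0.367 FPKM). In the limma comparison of the 17021 genes whose mean reached 0.1 FPKM, 235 genes (1.38%) passed an adjusted p of 0.05, every one lower in JunBΔep. All 15 genes of a skeletal muscle list were lower in JunBΔep with no overlap (11 called), and their sum was 21051 to 28374 FPKM in the controls and 1968 to 4732 FPKM in the other group. The number of 235 called genes fell to 0 without control replicate 0, 1 or 2 or without JunBΔep replicate 1, and to 135 without the library labelled JunBΔep replicate 0. It was also 0, muscle genes included, with the replicate number as a block and with the number series in the sample names as a block.

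Of the 10 acute-phase genes, 0 were among the called genes, against 1.38% of all genes tested, and 0 were at an unadjusted p below 0.05 in limma, where 243 of the 17021 genes were higher and 1044 lower. The ranges of the 2 groups overlapped for all 10, while 14.8% of the tested genes had no overlap (5.62% higher and 9.16% lower in JunBΔep). The 2 libraries numbered 0 held the highest value of every member, control replicate 0 for 7 genes (Saa1, Saa2, Saa4, Hp, Lrg1, Orm1 and Apcs) and the library labelled JunBΔep replicate 0 for 3 (Saa3, Lcn2 and Pglyrp1). All 10 passed the filter on low values, but Saa1, Saa2, Saa4 and Apcs were above 1 FPKM only in 1 or both of these libraries. The median difference of the 10, JunBΔep minus control on the log2(FPKM + 0.5) scale, was -1.20, beside 0.03 over all genes tested. With each mouse left out in turn it ran from -1.64 (without the library labelled JunBΔep replicate 0) to 0.46 (without control replicate 0), and it was -0.43 without JunBΔep replicate 1 and -0.50 without JunBΔep replicate 2, so no direction is read from it.

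**Figure D1:**
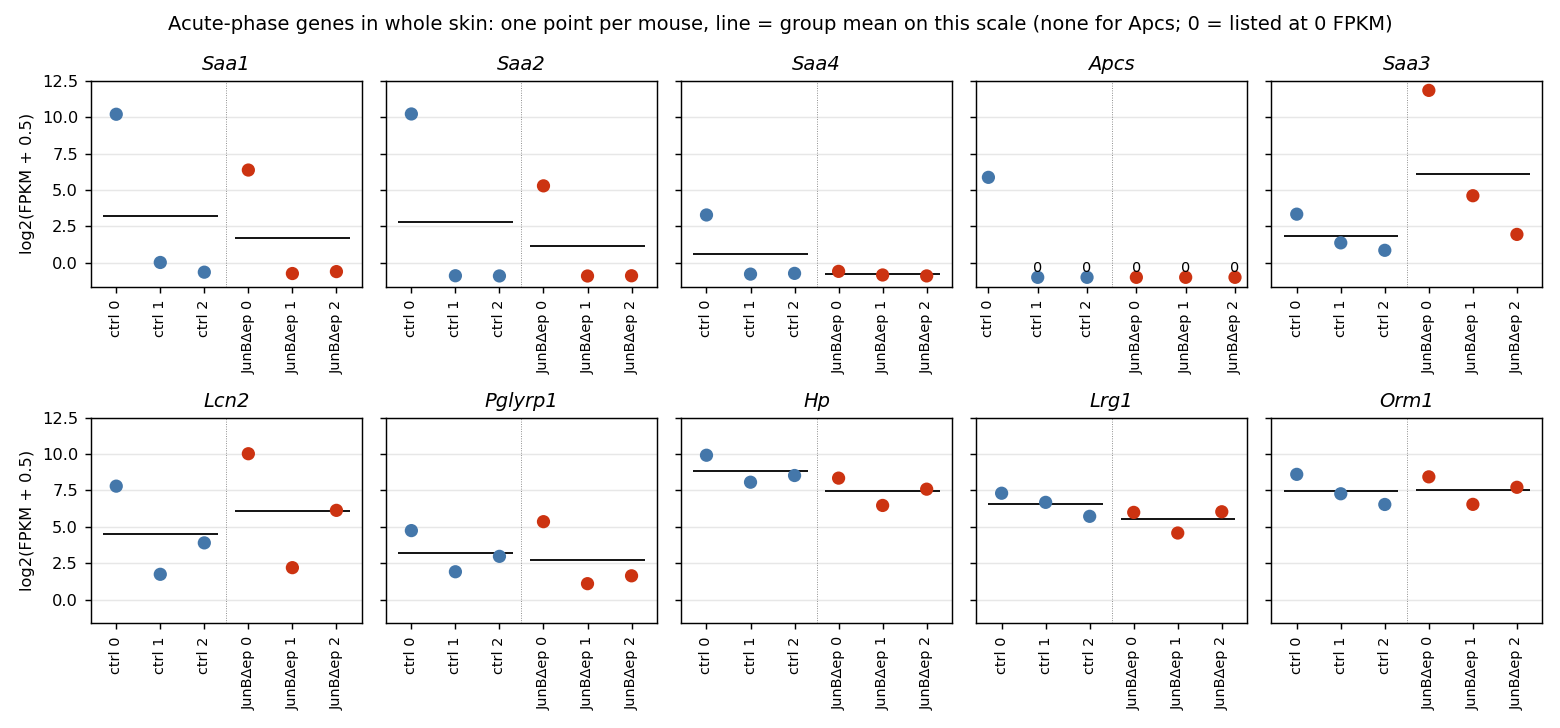
Each panel plots 1 acute-phase gene on the log2(FPKM + 0.5) scale, with a point for each mouse (blue control, red labelled JunBΔep) and a line at the group mean, omitted for Apcs because of its values of 0. Saa1, Saa2, Saa4 and Apcs are highest in control replicate 0, Saa3 and Lcn2 are highest in the mouse labelled JunBΔep replicate 0 at 3720 and 1044 FPKM, and Hp, Lrg1 and Orm1 are at 23.3 FPKM or more in all 6 mice.

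The serum amyloid A genes encode small apolipoproteins that ride on high-density lipoprotein and attract leukocytes. On mm9 they form a cluster of 42317 bases on chromosome 7, in the order Saa3 (53967368 to 53971046), Saa4 (53983387 to 53987913), Saa1 (53995871 to 53998350) and Saa2 (54007203 to 54009684). Saa2 is on the plus strand and the other three are on the minus strand. Saa1 and Saa2 are the main liver-made forms. Control replicates 0 to 2 held 1191, 0.516 and 0.139 FPKM of Saa1. In the library labelled JunBΔep replicate 0 its level was 82.9 FPKM, and JunBΔep replicates 1 and 2 held 0.0996 and 0.157 FPKM. These 2 libraries, 1 of each genotype, thus held the gene in quantity and the others were under 1 FPKM. Saa2 followed the same division, with 1208 FPKM in control replicate 0 and a level of 38.7 FPKM for the library labelled JunBΔep replicate 0. In the remaining mice Saa2 was at 0.0330 to 0.0395 FPKM. Once each of those 4 values was multiplied by the relative scaling total of its library, they stood within 0.05% of each other (ratios to the lowest of 1.0000 to 1.0005), as an equal and very small number of reads would give.

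Saa1 and Saa2 are close copies and reads can be shared between them. Their coding sequences, 369 bases each in GENCODE vM1, were 95.1% identical, and 33.3% of the 50-base windows of the Saa1 transcript had a counterpart in Saa2 with at most 2 mismatches, the number the alignment allowed. The length of 50 is only an illustration, since no source used here states the read length. The split of reads between both genes is therefore uncertain, although it was not the same in both high libraries. The ratio of Saa1 to Saa2 was 0.986 in control replicate 0 and 2.14 in the library labelled JunBΔep replicate 0. Saa3 is farther away, with 76.1% identity to Saa1 and 7.73% of the Saa1 windows matched.

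The stretches around the start sites of 4 members are shown because they set the near-identical pair Saa1 and Saa2, which were high in the same 2 libraries, beside Saa3 and Lcn2, whose highest level was in the library labelled JunBΔep replicate 0. They are RefSeq promoters on GRCm38.p6, a later build than the mm9 of the gene positions, each with 250 bases before the start and 50 after it, written in the direction of the gene. Entries for 8 of the 10 members were found, and Hp and Orm1 had none. The regions are chr7:46742931-46743230 on the minus strand for Saa1, chr7:46751583-46751882 on the plus strand for Saa2, chr7:46715627-46715926 on the minus strand for Saa3 and chr2:32387690-32387989 on the minus strand for Lcn2. Capitals mark matches to TTGCNNAA on either strand, letters of the kind C/EBP factors bind.
Saa1: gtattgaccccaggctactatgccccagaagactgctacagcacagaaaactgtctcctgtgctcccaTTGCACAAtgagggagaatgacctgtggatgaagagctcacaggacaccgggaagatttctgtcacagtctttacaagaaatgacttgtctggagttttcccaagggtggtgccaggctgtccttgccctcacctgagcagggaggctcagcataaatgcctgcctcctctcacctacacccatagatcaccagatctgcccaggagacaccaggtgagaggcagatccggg
Saa2: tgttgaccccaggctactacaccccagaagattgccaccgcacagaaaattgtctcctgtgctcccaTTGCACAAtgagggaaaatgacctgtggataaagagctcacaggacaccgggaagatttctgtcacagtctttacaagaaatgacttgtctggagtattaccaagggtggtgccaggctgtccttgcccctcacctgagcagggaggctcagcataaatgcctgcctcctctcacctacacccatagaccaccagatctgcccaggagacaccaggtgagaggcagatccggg
Saa3: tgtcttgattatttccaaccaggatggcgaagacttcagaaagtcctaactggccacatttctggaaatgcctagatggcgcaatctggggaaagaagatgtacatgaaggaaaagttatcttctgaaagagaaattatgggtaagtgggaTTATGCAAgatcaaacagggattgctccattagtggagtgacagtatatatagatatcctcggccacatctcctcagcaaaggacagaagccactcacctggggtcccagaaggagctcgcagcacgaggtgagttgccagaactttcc
Lcn2: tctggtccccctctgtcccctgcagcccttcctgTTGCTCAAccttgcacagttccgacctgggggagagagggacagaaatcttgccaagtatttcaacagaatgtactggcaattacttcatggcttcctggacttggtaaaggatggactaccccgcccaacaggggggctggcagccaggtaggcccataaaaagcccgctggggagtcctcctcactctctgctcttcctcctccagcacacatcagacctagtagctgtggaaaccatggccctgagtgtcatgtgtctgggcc

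The Saa1 and Saa2 promoters were 95.3% identical over 301 aligned columns and carried the same capitals at -182 to -175 and at -183 to -176. The Saa3 promoter was 50.9% identical to that of Saa1 and held its match at -99 to -92 on the minus strand, and Lcn2 held its own at -216 to -209. Of the 8 members with an entry, Saa1, Saa2, Saa3, Saa4 and Lcn2 had such a match, while 10.8% of 32851 promoters of the same length did. The NF-kB decamer consensus was found in Pglyrp1 alone of the 8 (4.51% of all promoters), and the STAT letters TTCNNNGAA in Apcs alone (8.30%). None of the matched stretches overlapped another. A match is a description of letters and not evidence that a factor binds there.

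Saa3 had a different distribution from its neighbours. The controls held 9.67, 2.09 and 1.31 FPKM (replicates 0 to 2), and JunBΔep replicates 1 and 2 held 24.0 and 3.37 FPKM. In the library labelled JunBΔep replicate 0 it reached 3720 FPKM, rank 10 of all 23951 genes by level there, against rank 6948 in control replicate 0. Each of the libraries labelled JunBΔep thus exceeded control replicates 1 and 2, but replicate 2 was below control replicate 0. The log2 difference was 4.28, and it was 1.43 without the library labelled JunBΔep replicate 0. The sample names run in a pair of number series, the first with control replicates 0 and 1 and the library labelled JunBΔep replicate 0, the second with control replicate 2 and JunBΔep replicates 1 and 2, and the labels do not say what the series mark. In the first series the library labelled JunBΔep replicate 0, the only one there with that label, was above both controls in Saa3, by 9.50 on the log2 scale. In the second, with a single control, both JunBΔep mice were above it, by 2.42. No other member lay on the same side without overlap in both series. The share of all genes that did so was not counted, and each series has a group of 1 mouse, so Saa3 is not singled out by this.

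The ratio of Saa3 to Saa1 gives the contrast between the 2 high libraries in a single number. It was 0.00811 in control replicate 0 and 44.9 in the library labelled JunBΔep replicate 0. In the other mice, where Saa1 was under 1 FPKM, it ran from 4.04 to 240.8. Saa4, which encodes the constitutive form carried on lipoprotein by the liver, was at 9.28 FPKM in control replicate 0. The other controls held 0.0830 and 0.104 FPKM, and the libraries labelled JunBΔep replicates 0, 1 and 2 held 0.165, 0.0595 and 0.0352 FPKM. The library labelled JunBΔep replicate 0 therefore shared with control replicate 0 a high Saa1 and Saa2 but not a high Saa4.

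Apcs encodes serum amyloid P component, a pentraxin made by the liver that binds amyloid and microbial surfaces (chromosome 1, 174824093 to 174825185 on mm9). It was at 58.3 FPKM in control replicate 0 and is listed at 0 in the other 5 libraries, so no fold change is given. No 50-base window of its transcript was found in another protein-coding gene. Its relative Crp, C-reactive protein, was at 11.6 FPKM in control replicate 0 and at most 0.142 FPKM in the other libraries. The pentraxin Ptx3, made by leukocytes and stromal cells at sites of inflammation, reached 9.15 FPKM for the library labelled JunBΔep replicate 0, with 0.545 to 1.89 FPKM in the rest.

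The genes whose profile over the 6 mice was most like that of Apcs were Pzp, Kng1, Mup20, Fabp1 and Serpina1b, with root mean square distances of 0.05 to 0.29 between centred log2(FPKM + 0.5) profiles. For Saa4 they were Ms4a3, Mbl2, Cyp2c50, Mbl1 and Igfbp1, with distances of 0.06 to 0.10. Saa1 and Saa2 were nearest to each other, at 0.40. After that pair came the neutrophil granule genes Ngp and Camp, the macrophage and neutrophil product Chil3 and the liver glycoprotein Ahsg, at 1.01 to 1.96 from Saa1. Ngp was at 195.5 FPKM in control replicate 0, 21.6 FPKM in the library labelled JunBΔep replicate 0 and no more than 0.288 FPKM in the other mice, a division much like that of Saa1.

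A list of 32 hepatocyte genes, written with earlier results known, was read beside the members in each library. All 32 were at 1 FPKM or more in control replicate 0, and 31 had their highest value there. The exception was Ttpa, with 4.28 FPKM in control replicate 0 and 4.59 FPKM in the library labelled JunBΔep replicate 0. Transferrin (Trf), the iron carrier and the gene of highest mean in the list, did not follow the rest. Its level was 954 FPKM in control replicate 0, 743 FPKM in JunBΔep replicate 2, 129 to 231 FPKM in 3 other mice and 33.1 FPKM in the library labelled JunBΔep replicate 0. Albumin (Alb) was at 823 FPKM in control replicate 0, while control replicates 1 and 2 held 2.02 and 1.75 FPKM and the libraries labelled JunBΔep replicates 0, 1 and 2 held 0.263, 8.49 and 18.8 FPKM. The haem carrier gene Hpx was at 547 FPKM in control replicate 0 and at most 0.532 FPKM elsewhere, and Apoa1, of high-density lipoprotein, was at 275 FPKM against at most 0.411 FPKM. The lowest Alb of the 6 mice was that of the library labelled JunBΔep replicate 0, which held Saa1 at 82.9 FPKM.

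Set against control replicate 0, the hepatocyte genes of the library labelled JunBΔep replicate 0 had a median of 0.0691% (range 0% to 107.2%), and 28 of the 32 were under 1%. In the other 4 libraries the median was 0.154% to 0.220%. Saa1 in the library labelled JunBΔep replicate 0 was at 6.95% of its level in control replicate 0, Saa2 at 3.21% and Saa4 at 1.78%. The same value was 33.5% for Hp, 39.9% for Lrg1, 88.8% for Orm1, 154.1% for Pglyrp1, 470.0% for Lcn2 and 38491% for Saa3. Of the 10 members, Apcs alone, listed at 0, was at or below the hepatocyte median in this library. The members and the hepatocyte genes did not keep a single ratio between both libraries. None of the hepatocyte genes was called in limma, with 0 at an unadjusted p below 0.05, and the part of liver transcripts in the acute-phase values of control replicate 0 was not tested.

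**Figure D2:**
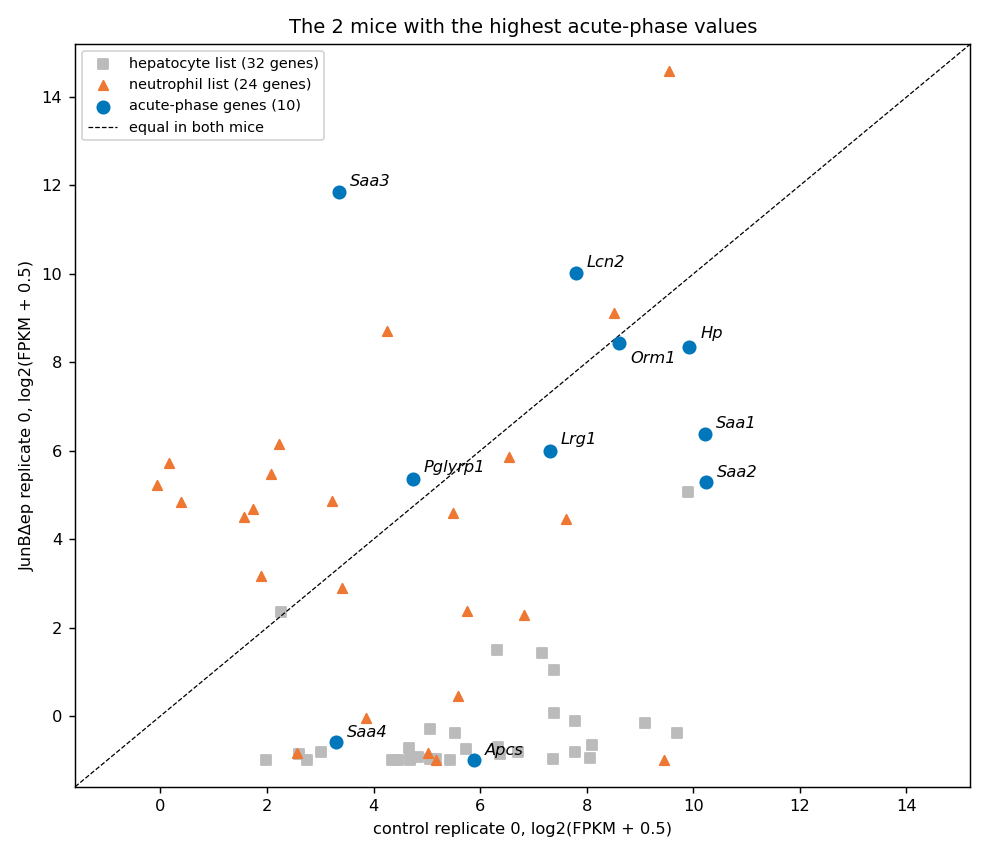
Each point is a gene, placed by its log2(FPKM + 0.5) in control replicate 0 (horizontal) and in the mouse labelled JunBΔep replicate 0 (vertical), for the 10 acute-phase genes, the 32 hepatocyte genes and the 24 neutrophil genes in the table. Most hepatocyte genes lie along the bottom with Apcs and Saa4, Trf (33.1 FPKM) and Ttpa (4.59 FPKM) lie higher, Saa1 and Saa2 lie above all 32, and Saa3, Lcn2 and Pglyrp1 lie above the line of equal values.

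Lcn2 encodes lipocalin 2, which withholds iron from bacteria by binding their siderophores (chromosome 2, 32240153 to 32243317). Control replicates 0 to 2 held 222, 2.82 and 14.4 FPKM, or 79.8 ± 123.4 FPKM (SD, n = 3). The libraries labelled JunBΔep replicates 0, 1 and 2 held 1044, 4.06 and 69.7 FPKM, or 372.5 ± 582.3 FPKM (SD, n = 3). The log2 difference of 1.64 was smaller than the pooled spread within groups of 3.52, and with each mouse left out it ran from -0.31 (without the library labelled JunBΔep replicate 0) to 3.61 (without JunBΔep replicate 1), with 3.30 without control replicate 0 and 0.27 without control replicate 1. The order of the mice was not the order of the genotypes, since control replicate 0 held more Lcn2 than JunBΔep replicate 2, and control replicate 2 more than JunBΔep replicate 1.

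Pglyrp1 encodes a peptidoglycan recognition protein of neutrophil granules that binds bacterial cell walls (chromosome 7, 19470039 to 19475787). Control replicates 0 to 2 held 26.2, 3.25 and 7.33 FPKM, and the libraries labelled JunBΔep replicates 0, 1 and 2 held 40.4, 1.63 and 2.60 FPKM. JunBΔep replicates 1 and 2 were the lowest of the 6. The log2 difference was -0.51, and it was 0.25 without control replicate 0. Its relatives Pglyrp3 and Pglyrp4, expressed in epithelia including epidermis, had their highest levels, 32.1 and 27.8 FPKM, in the library labelled JunBΔep replicate 0. Pglyrp3 was at 1.52 to 4.50 FPKM and Pglyrp4 at 2.06 to 4.99 FPKM in the other 5 mice. Of the 8 tested pentraxin and peptidoglycan recognition relatives, 0 were called in limma, and at an unadjusted p below 0.05 there were 0 higher and 1 lower (Nptx1, a neuronal pentraxin, adjusted p = 0.396 from limma).

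Lcn2 and Pglyrp1 did not keep a fixed ratio. It was 8.47 in control replicate 0 and 25.8 in the library labelled JunBΔep replicate 0. JunBΔep replicate 2 had a ratio of 26.8, and the remaining libraries had 0.868 to 2.50. Of the 24 neutrophil genes in the table, 11 were highest in control replicate 0 and 11 in the library labelled JunBΔep replicate 0, and the summed level was 2496 FPKM and 25868 FPKM in these libraries against 144.6 to 478.5 FPKM in the others. S100a8 alone made up 94.5% of the sum in the library labelled JunBΔep replicate 0, and without it the sums of these 2 libraries were 1752 and 1412 FPKM against 131.6 to 470.3 FPKM. Ly6g, a defining marker, had no row.

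The 2 high libraries differed in which neutrophil genes they held. Retnlg and Mmp8, genes of maturing and mature neutrophils, had 18.6 and 2.85 FPKM in control replicate 0 and 418 and 25.3 FPKM in the library labelled JunBΔep replicate 0. Mpo and Elane, granule genes of early precursors, chosen after their values were seen, were at 32.0 and 35.7 FPKM in control replicate 0. In the library labelled JunBΔep replicate 0 Mpo was at 0.0615 FPKM and Elane is listed at 0. Camp, Ngp, Ltf, Chil3 and Cd177 were at 112.6, 195.5, 53.4, 44.5 and 10.1 FPKM in control replicate 0. In the library labelled JunBΔep replicate 0 they were at 4.37, 21.6, 4.66, 23.7 and 6.99 FPKM. Of the 24 neutrophil genes, 11 were highest in each of these libraries, and no division by maturity is read from them. Of 10 erythrocyte genes, 9 were highest in control replicate 0, with Hbb-b1 at 1230 FPKM against 29.1 to 358.4 FPKM in the others. S100a8, the most abundant gene of the neutrophil list, was at 744 FPKM in control replicate 0 and reached 24456 FPKM in the mouse labelled JunBΔep replicate 0, where its partner S100a9 is listed at 0. None of the 24 neutrophil or 10 erythrocyte genes was called in limma, and at an unadjusted p below 0.05 there were 0 and 2. The part of these cells in the Lcn2 and Pglyrp1 values was not tested.

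The 5 genes nearest to Lcn2 in profile were Fetub, Slpi, Retnlg, Mmp8 and Fpr2, at distances of 1.20 to 1.55. Slpi, a protease inhibitor of epithelia and neutrophils, had 1.54 to 19.1 FPKM in 5 mice and 602 FPKM in the library labelled JunBΔep replicate 0. Saa3 was nearest to 2610528A11Rik, Gm5416, Spink12, Lce3f and Sprr2g, at 0.92 to 1.25, of which Lce3f and Sprr2g encode proteins of the cornified envelope. Saa3 and Lcn2, the members with the highest levels in the library labelled JunBΔep replicate 0, were 2.76 apart, more than Lcn2 was from Pglyrp1 (1.85).

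Genes of stressed epidermis were read beside them. Of 16 such genes, 12 had their highest level in the library labelled JunBΔep replicate 0. Krt17, a keratin of injured epidermis with the highest mean of the list, had 4025 FPKM there and 626 to 1319 FPKM in the other 5, whereas Krt6a and Krt16 are listed at 0 there. In the same library Sprr1b was at 2557 FPKM, Stfa3 at 2599 FPKM and Defb14 at 468 FPKM. JunBΔep replicates 1 and 2 held 64.5 and 70.8 FPKM of Stfa3, and the controls 2.57 to 3.63 FPKM. Over the list, 0 genes were called in limma and 4 were higher at an unadjusted p below 0.05 (Il1f6, Stfa1, Stfa3 and Ccl20), against 243 of the 17021 genes tested. Of 9 oral and oesophageal epithelial genes, 6 also had their highest level in the library labelled JunBΔep replicate 0, with Krt4, a mucosal keratin, at 1356 FPKM against at most 0.937 FPKM and Sprr3, a mucosal envelope protein, at 398 FPKM against at most 0.0444 FPKM. The part of such epithelium in the Saa3 and Lcn2 values of that library was not tested. JunBΔep replicate 1, which had the second highest Saa3 of the 6 mice, had a low Lcn2. JunBΔep replicate 2, with a lower Saa3, had the third highest Lcn2. The order of the JunBΔep mice by Saa3 and by Lcn2 thus differed.

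**Figure D3:**
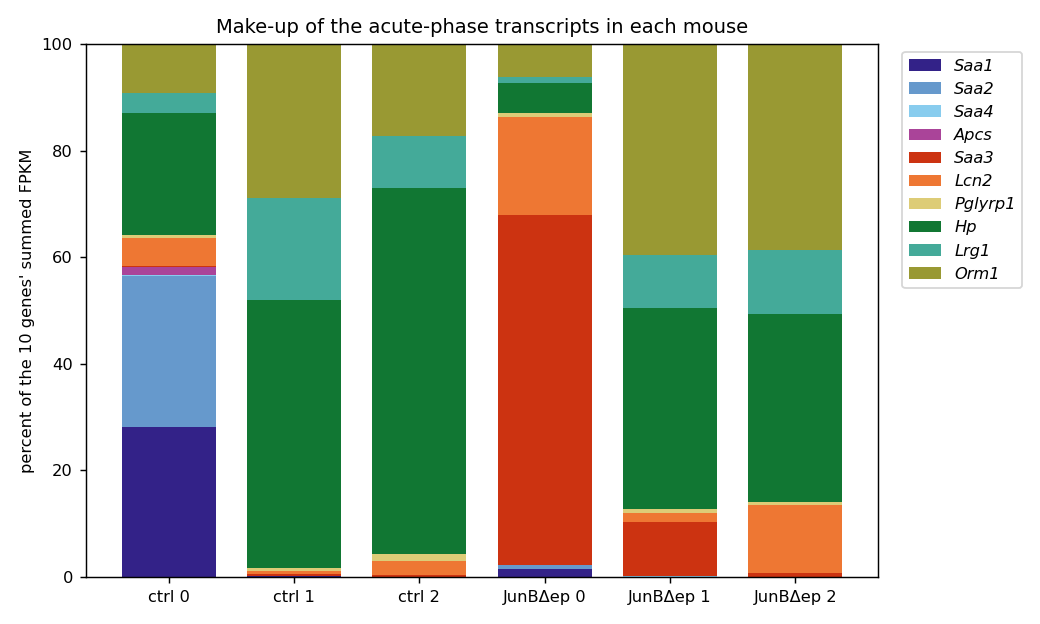
Bars show, for each mouse, the percentage of the summed FPKM of the 10 acute-phase genes that each gene took. Saa1 and Saa2 take 28.1% and 28.5% in control replicate 0, Saa3 takes 65.7% and Lcn2 18.4% in the mouse labelled JunBΔep replicate 0, and Hp, Lrg1 and Orm1 make up most of the total in the other 4 mice.

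Hp, Lrg1 and Orm1 were the members with a substantial level in every mouse. Their share of the summed FPKM of the 10 genes set the make-up of the 4 libraries with low Saa1, where Hp took 35.4% to 68.7% and Orm1 17.2% to 39.7%. The summed level was 4244 FPKM in control replicate 0, 5662 FPKM in the library labelled JunBΔep replicate 0 and 234.2 to 543.2 FPKM in the others. JunBΔep replicate 1 had the lowest sum.

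Hp encodes haptoglobin, which captures free haemoglobin for uptake by macrophages (chromosome 8, 112099030 to 112103072). Control replicates 0 to 2 held 971, 268 and 369 FPKM, or 536 ± 380 FPKM (SD, n = 3). The libraries labelled JunBΔep replicates 0, 1 and 2 held 326, 88.2 and 192 FPKM, or 202 ± 119 FPKM (SD, n = 3). JunBΔep replicates 1 and 2 were below every control and the library labelled JunBΔep replicate 0 lay between the controls. The log2 difference was -1.37, with a range of -1.81 to -0.83 when each mouse was left out in turn, beside a pooled spread within groups of 0.96. Skeletal muscle transcripts were also lower in every JunBΔep library, and their part in the Hp and Lrg1 values was not tested. Its nearest profiles were those of C6, F13a1, Serping1, Kmo and Aebp1, at 0.33 to 0.41.

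Lrg1 encodes a leucine-rich glycoprotein of plasma, endothelium and neutrophils that acts on transforming growth factor beta signalling (chromosome 17, 56259103 to 56261369). Control replicates 0 to 2 held 158, 102 and 52.3 FPKM, or 104.3 ± 53.0 FPKM (SD, n = 3). The libraries labelled JunBΔep replicates 0, 1 and 2 held 63.2, 23.3 and 65.1 FPKM, or 50.5 ± 23.6 FPKM (SD, n = 3). The groups overlapped through control replicate 2, and the log2 difference was -1.04 (-1.46 to -0.56 with each mouse left out). The library labelled JunBΔep replicate 0, so high in Saa3 and Lcn2, was near the middle of the range for Lrg1. Hhex, Lyl1 and the complement factor Cfb were its nearest profiles, at 0.27 to 0.28.

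Orm1 encodes orosomucoid 1, a carrier of drugs and lipids in plasma (chromosome 4, 63005594 to 63009197). Control replicates 0 to 2 held 390, 154 and 92.4 FPKM, or 212 ± 157 FPKM (SD, n = 3). The libraries labelled JunBΔep replicates 0, 1 and 2 held 346, 92.9 and 210 FPKM, or 216 ± 127 FPKM (SD, n = 3). The group means nearly coincided, and the log2 difference of 0.09 lay between -0.37 and 0.66 as each mouse was left out. Its nearest profiles were Slc13a3, Ncf1, Card9, Awat1 and Tfpi2, at 0.23 to 0.35.

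Orm2, the next gene of the cluster, separated the 2 libraries that Orm1 did not. It was chosen after its values were seen. Orm2 was at 143 FPKM in control replicate 0 and at 0.464 to 2.75 FPKM in the other 5, so that the ratio of Orm1 to Orm2 was 2.72 in control replicate 0, 705.4 in the library labelled JunBΔep replicate 0 and 76.5 to 199.0 in the rest. The coding sequences of both genes were 89.9% identical and 37.7% of the 50-base windows of Orm1 matched Orm2 with at most 2 mismatches, so their split is uncertain as well. Orm3 was at 5.21 FPKM or less in every mouse.

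Fat was measured beside Hp and Orm1. The 14 adipocyte genes summed to 233.1 FPKM in the library labelled JunBΔep replicate 0, where Adipoq was at 1.61 FPKM, and to 19022 FPKM in JunBΔep replicate 2, with 3306 to 8037 FPKM in the others. Fabp4, a fatty acid carrier and the most abundant of them, had 56.0 and 7288 FPKM in these 2 libraries. Hp was at 326 FPKM in the former and 192 FPKM in the latter, and Orm1 at 346 and 210 FPKM. Both genes were higher in the library with the least adipocyte transcript than in the library with the most, a comparison of these 2 libraries only. The part of fat in the Hp and Orm1 values was not tested. None of the 14 was called in limma, with 0 at an unadjusted p below 0.05.

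**Figure D4:**
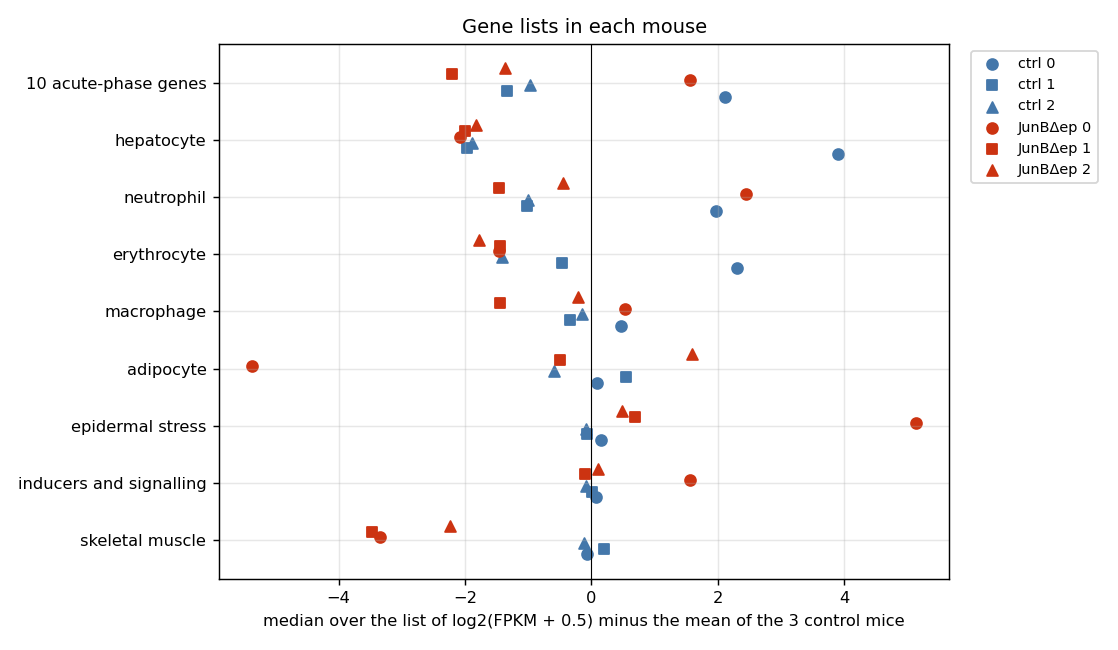
Each point is the median over a gene list of log2(FPKM + 0.5) in a mouse minus the mean of the 3 control mice, with symbols for mice (blue control, red labelled JunBΔep). Control replicate 0 stands out for the hepatocyte (3.90) and erythrocyte (2.29) lists, and the mouse labelled JunBΔep replicate 0 for the epidermal stress (5.14) and adipocyte (-5.37) lists, while both are high for the neutrophil list and the 10 acute-phase genes.

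The cytokines that induce acute-phase genes, their receptors and the factors downstream were examined as a list of 30 genes, of which 28 were tested. In limma 0 were called and 0 were at an unadjusted p below 0.05. Of the 30 genes, 25 had their highest value in the library labelled JunBΔep replicate 0. The median log2 difference was 0.55, beside 0.03 over all genes tested. Il1b, interleukin-1 beta, was at 406 FPKM there, with 1.28 to 3.36 FPKM in the other 5 mice. Interleukin-6 (Il6) was at 31.8 FPKM there against 0.0927 to 0.266 FPKM, and oncostatin M (Osm) at 30.0 FPKM against 0.122 to 0.471 FPKM, both named for their role with their values known. Control replicate 0, with the highest Saa1, had Il6 at 0.148 FPKM and Il1b at 3.36 FPKM, the former below and the latter just above both other controls.

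The signalling genes showed smaller differences. Socs3, which damps STAT3 signalling and is its target, had 114.8 FPKM in the library labelled JunBΔep replicate 0 and 32.5 FPKM in JunBΔep replicate 2, with 13.2 to 19 FPKM in the other mice. Stat3 had 113.8 FPKM in the former and 31.5 to 50.4 FPKM in the other 5 mice. Cebpb, which encodes a C/EBP factor of the acute-phase response, reached 311 FPKM in the same library and had 68.7 to 125.6 FPKM in the others. Tnfrsf1a, a receptor of tumour necrosis factor, had 159.9 FPKM there and 79.4 to 107.0 FPKM in the others. Rela, Nfkbiz and Il1a were the 3 genes of the list with no overlap between the groups, all higher in JunBΔep, against 5.62% of all genes tested in that direction. Their adjusted p-values were 0.673 to 0.722 in limma.

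**Figure D5:**
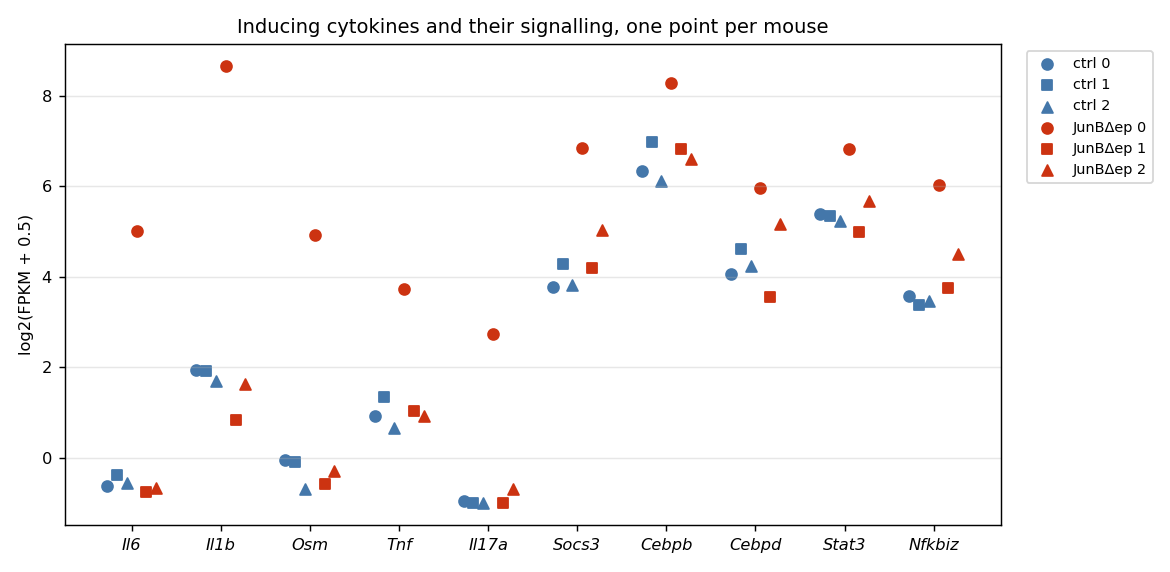
Points give log2(FPKM + 0.5) of 10 cytokine and signalling genes in each mouse (blue control, red labelled JunBΔep), with genes along the horizontal axis. The mouse labelled JunBΔep replicate 0 is above all others for each gene, by far the most for Il6, Il1b and Osm, and control replicate 0 lies close to the other controls.

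Other acute-phase reactants were taken from a list of 28 genes, of which 27 were tested. None was called in limma, and at an unadjusted p below 0.05 there was 1 higher (Mt1, a metal-binding metallothionein, log2 difference 0.92, adjusted p = 0.661 from limma) and 0 lower. Mt2, of the same family and the most abundant of the list, had 1171 FPKM in the library labelled JunBΔep replicate 0, 944 FPKM in JunBΔep replicate 1 and 258 to 454 FPKM in the rest. Of the 28 genes, 16 were highest in control replicate 0 and 9 in the library labelled JunBΔep replicate 0. The first set held the liver-made Fgl1, Itih3, Itih4, Mbl1, Mbl2, Crp and Pzp, of which Pzp was at 66.4 FPKM in control replicate 0 and at most 0.0408 FPKM elsewhere. The second set held Serpina3n, a serine protease inhibitor, at 195.7 FPKM against 11.4 to 92.1 FPKM, Il1rn, the interleukin-1 receptor antagonist, at 143.4 FPKM against 23.8 to 32.9 FPKM, and Cd14, a lipopolysaccharide co-receptor, at 169.6 FPKM against 2.91 to 17.8 FPKM. Most genes of this wider list, chosen with earlier results known, thus also had their highest value in these 2 libraries. The share over all genes was not counted, so this does not add to the result for the 10 members. Complement C3 was at 265.7 FPKM in control replicate 0 and 34.8 to 180.2 FPKM in the others.

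Without both libraries numbered 0, a comparison of 2 mice with 2 added after the values were seen, the log2 differences of the members were 2.17 for Saa3, 1.35 for Lcn2, 0.23 for Orm1, -0.36 for Saa1, -1.08 for Pglyrp1, -1.27 for Hp and -0.90 for Lrg1. Saa2 was at -0.00 and Saa4 at -0.12, with levels under 0.2 FPKM in these mice, and Apcs is listed at 0 in all of them. Saa3 was higher in both JunBΔep mice than in both controls, and Hp, Pglyrp1 and Saa4 were lower in both. With 2 mice against 2 such a separation often arises by chance. Its share over all genes was not counted, so nothing is read from it. No gene of the table was called in limma in that comparison, with 846 at an unadjusted p below 0.05.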

How the data were processed

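Poly(A) RNA of whole skin was sequenced with strand-specific libraries from 3 JunBΔep mice and 3 controls. The authors checked reads with FastQC and aligned them to mm9 with TopHat 2.0.10, Bowtie 1.0.0 and SAMtools 0.1.19 in the nextpresso pipeline, allowing 2 mismatches and 20 multihits, and deposited FPKM per gene and mouse. Cufflinks is named in the submitters' processing notes, and no source used here states any further scaling. Whether the mice of a group shared a litter or cage is not stated, and p-values measure only the spread between these samples.

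Values were compared as log2(FPKM + 0.5), which understates the change of low genes, in limma 3.58.1 (R 4.3.3) with an intensity trend, two-sided, over the 17021 genes whose mean reached 0.1 FPKM, with Benjamini-Hochberg adjustment at 0.05. FPKM are not counts, so no count model was used, and depth is unknown. Among genes below 0.15 FPKM, ratios between libraries pile up at a single value, which gave relative scaling totals of 0.955 to 1.14. The procedure was also run on simulated data, but no outcome is given here and nothing is read from it. Python 3.11.15 was used with pandas 2.3.3, Biopython 1.88 for alignments and matplotlib 3.10.9 for figures.

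The members and gene lists were chosen with earlier results of these data known. Members get no test. Genes named are the members, Junb, for each list up to 6 examples taken first from its genes of highest mean FPKM, and for each member the 5 genes of nearest profile among those with a mean of at least 1 FPKM. Other genes, such as the members of small counts, exceptions to a count, Krt6a, Krt16, Cd14 and the liver-made acute-phase genes, were named after their values were seen. Chil3 and Emr1 were matched through RefSeq synonyms, and Ly6g, Hbb-b2 and Ahsp had no row. Positions are from GENCODE vM1 on mm9, and promoters from RefSeq on GRCm38.p6. All 6 columns of the table were used.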

Additional observations from a re-analysis of the deposited data

How the results depend on the processing

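Of the 10 members, Saa3, Hp and Lrg1 kept the sign of their log2 difference under all 13 alternatives. Saa4 and Apcs fell below the filter without control replicate 0 and without both replicates 0, and Saa2 fell below it in the latter. These alternatives are therefore not counted for them. With the filter set aside, the difference without both replicates 0 was -0.12 for Saa4, -0.00 for Saa2 and 0 for Apcs. The sign of Saa1 and of Saa2 turned without control replicate 0 (1.99 and 2.06) and with the number series of the sample names as a block (0.62 and 0.31). That of Lcn2 turned without the library labelled JunBΔep replicate 0, to -0.31. Pglyrp1 turned in 4 of 13 alternatives and Orm1 in 3, so no direction is given for either. None of the 125 recomputed values moved by more than the pooled spread within groups, but no stability is read from this. Leaving out 1 of 3 mice cannot move a difference that far, and the replicate block returned the main values unchanged. The spread was also wide, at 5.18 for Saa1 and 3.52 for Lcn2. Leaving out each mouse in turn gave 0 to 254 called genes against 235, and 0 to 12 genes of the fixed lists against 11, all of them skeletal muscle genes in the main comparison. With a replicate block, 0 genes and 0 list genes were called, and with the number series as a block also 0 and 0. Without both replicates 0, chosen after seeing the data, they were 0 and 0. With no filter 5 list genes were called. The cause was not tested. Other pseudocounts, a filter at a mean of 1 FPKM, median ratios and quantile normalization gave 221 to 240 genes, and no filter gave 166. Same-numbered mice did not deviate together (correlations of deviations of 0.12, -0.228 and -0.426 for numbers 0, 1 and 2), so the block pairs mice that share only a number. With 3 mice a group and unknown depth, differences of low genes such as Saa2, Saa4 and Apcs outside the 2 high libraries were not detectable.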

Other observations

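Receptors and partners of the acute-phase proteins were taken as a list of 23 genes, all tested, of which 0 were called in limma and 0 were at an unadjusted p below 0.05. The median log2 difference was -0.00, beside 0.03 over all genes tested, and 12 of the 23 had their highest level in the library labelled JunBΔep replicate 0. Fpr2, a formyl peptide receptor that binds serum amyloid A, reached 23.8 FPKM there and 3.23 FPKM in control replicate 0, with 0.0622 to 0.295 FPKM in the other 4. Trem1, a myeloid receptor that Pglyrp1 engages, chosen after its values were seen, was at 36.7 FPKM there and at most 0.457 FPKM in the rest. Hmox1, which degrades haem, was at 93.5 FPKM there and 39.8 to 64.4 FPKM in the others. Scarb1, a lipoprotein receptor, and Cd36 were instead highest in JunBΔep replicate 2, at 51.3 and 296.0 FPKM.

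Of the 12 macrophage genes, 5 were highest in control replicate 0 and 7 in the library labelled JunBΔep replicate 0, with summed levels of 842 and 1076 FPKM against 226.5 to 514.1 FPKM in the others. None was called in limma, and 0 were at an unadjusted p below 0.05. The sexes were mixed within both groups. Control replicate 1 held 27.6 FPKM of Xist and JunBΔep replicates 1 and 2 held 34.2 and 30.3 FPKM, while the other 3 libraries were no higher than 0.0274 FPKM and held the Y-linked gene Eif2s3y at 26.8 to 35.5 FPKM. Both libraries with high Saa1 were in the latter set, as was control replicate 2, where Saa1 was at 0.139 FPKM. The part of sex in these values was not tested.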
